A study of Homo sapiens with 2 samples.

Results

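The genes described here are 8 prostate cancer surface targets: FOLH1, STEAP1, STEAP2, STEAP4, PSCA, TRPM8, SLC45A3 and CD276. They were taken by symbol from a list of names, with no threshold on their values, and all 8 were found among the 25268 gene symbols of both libraries. The study sequenced mRNA of C4-2B MDVR cells, an enzalutamide-resistant derivative of the castration-resistant prostate cancer line C4-2B, which descends from LNCaP. One culture received the vehicle DMSO and one received 20 µM Indocin, and both were harvested after 3 days. Indocin, or indomethacin, blocks the cyclooxygenases and also AKR1C3, an enzyme that produces androgens. The maintenance medium of these cells held 20 µM of the antiandrogen enzalutamide, so the comparison is of Indocin against vehicle in cells kept under antiandrogen, and no culture without enzalutamide is part of it. Each group had 1 library. No difference below therefore has a replicate check, a test or an error across cultures.

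Surface proteins of prostate cancer serve as addresses for imaging agents, radioligands, antibody-drug conjugates, T-cell-engaging antibodies and engineered T cells. Such agents need the protein on the cell, and messenger RNA is only one of the steps that set its amount. Several of these genes are tied to androgen signalling in prostate cells: SLC45A3, STEAP4 and TRPM8 are known as androgen-induced, and FOLH1 as a gene that is higher when androgen signalling is blocked.

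Values are FPKM, fragments per transcript length and per library size, as deposited, so levels can be set side by side between genes. Differences between libraries are given as the log2 ratio of FPKM + 1, Indocin over DMSO, which understates the change of genes with low values. Counts use a threshold of 1.5-fold on that scale. The background, called all genes below, is the 11965 genes that averaged at least 1 FPKM over the 2 libraries and are not short RNA genes. FPKM summed to 617510 with vehicle and 583096 with Indocin, and at least 1 FPKM was listed for 11935 and 12078 genes. The absolute read depth is unknown. Luminal prostate markers were high in both libraries, among them KRT18 (412.7 FPKM with vehicle and 362.3 in Indocin), KRT8 (380.8 and 308.6) and FOXA1 (174.6 and 176.4). None of 5 basal markers reached a mean of 1 FPKM. Of 8 neuroendocrine markers only ENO2 did, which many cell types express, and of 13 stromal, endothelial and immune markers only COL1A1 and CD68. The stromal markers COL1A2, COL3A1 and DCN, the endothelial PECAM1 and the T-cell marker CD3E were listed at 0 in both libraries.

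For FOLH1 and STEAP1 a copy elsewhere in the genome, near-identical where it aligns, bears on what an FPKM value can mean. The sequences show how few bases tell the copies apart even where their aligned parts differ most. In each pair the 90 aligned coding bases with the most differences inside 1 exon are given 5′ to 3′ on the gene's own strand. They come from GENCODE transcripts of build GRCh38 (the deposited values were made on GRCh37 or hg19). Capitals mark the bases that differ, and all other bases are identical. The STEAP1 stretch lies in exon 3 of 5, chr7:90160874-90160963, plus strand, and the STEAP1B stretch in exon 3 of 5 of its transcript, chr7:22493678-22493767, minus strand.
STEAP1: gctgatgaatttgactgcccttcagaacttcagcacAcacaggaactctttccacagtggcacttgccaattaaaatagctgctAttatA
STEAP1B: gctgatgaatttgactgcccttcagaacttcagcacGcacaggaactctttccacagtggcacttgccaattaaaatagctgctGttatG

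The FOLH1 stretch lies in exon 3 of 19, chr11:49200297-49200386, minus strand. Its counterpart lies in exon 2 of 18 of the transcribed pseudogene FOLH1B, chr11:89645058-89645147, plus strand.
FOLH1: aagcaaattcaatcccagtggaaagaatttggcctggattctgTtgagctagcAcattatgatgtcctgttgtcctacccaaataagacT
FOLH1B: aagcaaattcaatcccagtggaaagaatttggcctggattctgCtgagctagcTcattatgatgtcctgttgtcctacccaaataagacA

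In these most divergent aligned stretches 3 of 90 bases differ. The alignments leave out part of each coding sequence, which has 1017 bases in STEAP1 and 2250 in FOLH1. Over the whole alignment STEAP1 and STEAP1B were identical at 748 of 762 aligned coding bases (98.2%), with a longest identical run of 149 bases. FOLH1 and FOLH1B were identical at 2105 of 2132 aligned bases (98.7%), with a longest identical run of 414 bases. Of the 50-base windows of the STEAP1 coding sequence, 26.3% also occur without a mismatch in a STEAP1B transcript. For FOLH1 against FOLH1B that share was 48.1%. The files listed STEAP1B at 6.88 FPKM with vehicle and 4.27 in the Indocin library, and FOLH1B at 0.309 and 0.316 FPKM. How reads that fit both copies were assigned is not given in the sources used here, so the values of these 2 members carry that uncertainty. With the copy's FPKM added, the log2 ratio was -0.17 for STEAP1 and 0.18 for FOLH1, against -0.14 and 0.18 without it.

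The surface targets covered a wide range of levels. In the DMSO library the highest of them, SLC45A3, stood 88.5 times above the lowest, TRPM8, and in the Indocin library the highest, FOLH1, stood 66.9 times above TRPM8. Together the 8 genes summed to 630.1 FPKM in the DMSO library (0.102% of all FPKM) and 570.0 in the Indocin library (0.0978%). The totals behind these shares include the short RNA genes, whose FPKM is unstable. From high to low the order in DMSO was SLC45A3, FOLH1, STEAP1, STEAP2, CD276, STEAP4, PSCA and TRPM8. In the Indocin library SLC45A3 and FOLH1 had changed places, as had STEAP4 and PSCA, and the other 4 kept their rank. Without replicates it cannot be said which neighbours in this order differ beyond the spread between cultures.

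**Figure D1:**
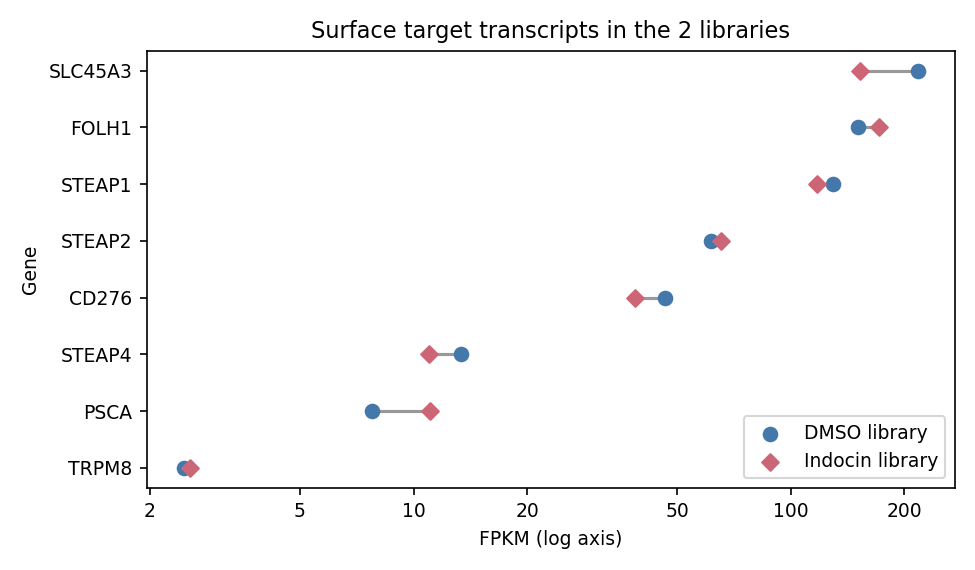
FPKM of each surface target (log axis) in the DMSO library (circles) and the Indocin library (diamonds), 1 library each. SLC45A3 (217.6 and 153.0 FPKM) and PSCA (7.76 and 11.1 FPKM) show the widest gaps between the 2 symbols, in opposite directions, and TRPM8 (2.46 and 2.56 FPKM) the narrowest.

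No surface target differed by 1.5-fold between the libraries in either direction. Among all 11965 genes, 2.19% lay past 1.5-fold on the higher side with Indocin and 0.744% on the lower side, and past 2-fold these shares were 0.752% and 0.0418%. A count of 0 among 8 genes lies close to this background. The median log2 ratio of the 8 genes was -0.05, beside -0.03 for all genes (quartiles -0.15 and 0.11). In direction they were evenly divided, with FOLH1, STEAP2, PSCA and TRPM8 above 0 and STEAP1, STEAP4, SLC45A3 and CD276 below. Among all genes 55.2% lay below 0.

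**Figure D2:**
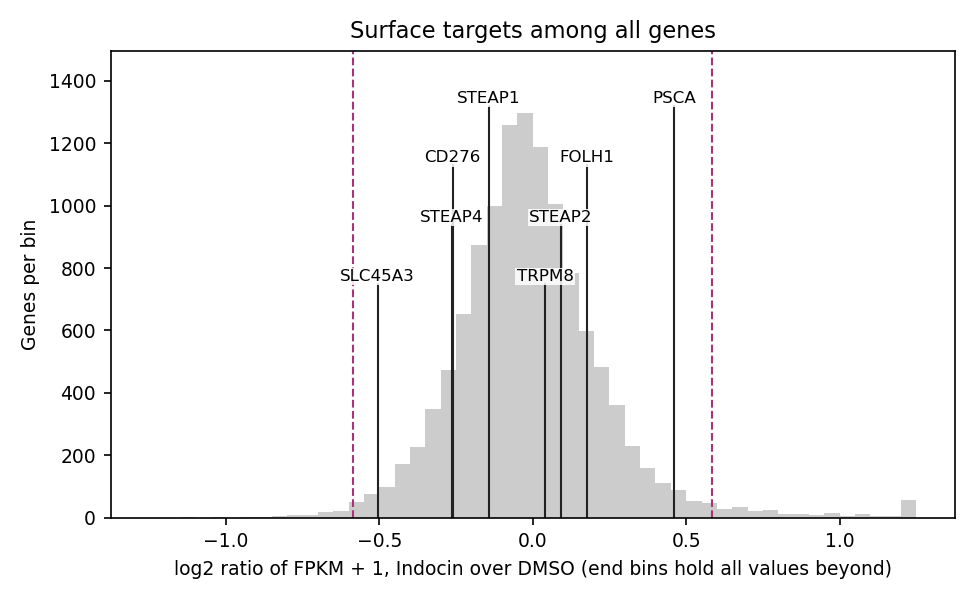
Log2 ratios of FPKM + 1, Indocin over DMSO, for all 11965 genes that averaged at least 1 FPKM (grey histogram, bins of 0.05, the end bins holding all values beyond them), with a vertical line at each surface target and dashed lines at 1.5-fold. The 8 targets lie between -0.51 (SLC45A3) and 0.46 (PSCA), inside the dashed lines. The lines of STEAP4 and CD276 nearly coincide at -0.26.

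FOLH1 encodes prostate-specific membrane antigen (PSMA), a carboxypeptidase of the cell surface that releases glutamate from folates and from a neuropeptide and is the target of PSMA imaging and radioligands. It stood at 151.3 FPKM with vehicle and 171.0 FPKM with Indocin, a difference of 19.7 FPKM. The Indocin value was 1.13-fold higher in FPKM, with a log2 ratio of 0.18, and 17.0% of all genes had a higher ratio. In level FOLH1 lay above 95.7% of all genes by its mean. The number of genes above it was 568 in DMSO and 463 in Indocin.

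SLC45A3, also called prostein, encodes a prostate-enriched membrane transporter whose promoter is a fusion partner of ETS genes in some prostate cancers. It was the highest surface target in DMSO, at 217.6 FPKM, and stood at 153.0 FPKM with Indocin. The DMSO value was 1.42-fold the Indocin value, with a log2 ratio of -0.51, the lowest of the 8. A lower ratio was listed for 1.60% of all genes. SLC45A3 was 1.44 times FOLH1 in the DMSO library and 0.895 times FOLH1 in the Indocin library, so the gene ranking first among the targets differed between the libraries.

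The STEAP genes encode metalloreductases with 6 membrane spans that reduce iron and copper at cell and endosome membranes. STEAP1, itself the target of antibodies and T-cell engagers, lacks the reductase domain that STEAP2 and STEAP4 carry. STEAP1 stood at 129.7 FPKM with vehicle and 117.4 FPKM with Indocin (log2 ratio -0.14), the highest of the 3 in both libraries. For STEAP2, which lies beside STEAP1 on chromosome 7, the values were 61.4 and 65.5 FPKM (0.09). STEAP4, the family member also known for its induction by inflammatory signals, stood at 13.4 and 11.0 FPKM (-0.26). All 3 lay within 1.22-fold between the libraries. STEAP1 was thus 2.11 times STEAP2 in the DMSO library and 1.79 times in the Indocin library. Relative to STEAP4 it was 9.72 and 10.7 times as high. STEAP2-AS1, an RNA annotated antisense to STEAP2, was listed at 0.368 and 0.277 FPKM, far below STEAP2 itself.

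Of the rest of the STEAP list, the 3 genes that averaged at least 1 FPKM had ratios below 0. STEAP3, the ferrireductase of the transferrin cycle, stood at 12.5 and 9.81 FPKM (-0.32), and the ferric reductase FRRS1 at 8.60 and 7.89 FPKM (-0.11). CYBRD1, a ferric reductase of the intestine, was listed at 0.0521 and 0.0686 FPKM, under the minimum mean. STEAP1B had the lowest ratio of the list, -0.58, just short of 1.5-fold on the FPKM + 1 scale. In FPKM alone its DMSO value was 1.61-fold its Indocin value. Of the 6 genes in this list that averaged at least 1 FPKM, 5 lay below 0 and STEAP2 above, as also with either rescaling of the libraries. The list median was -0.20, beside -0.03 for all genes, and none of the 6 passed 1.5-fold (97.1% of all genes did not).

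PSCA, prostate stem cell antigen, is a small Ly6/uPAR protein held in the membrane by a GPI anchor and a target of engineered T cells. It stood at 7.76 FPKM with vehicle and 11.1 FPKM with Indocin. The Indocin value was 1.42-fold higher in FPKM, the same size as the SLC45A3 difference in the other direction. On the FPKM + 1 scale its log2 ratio was 0.46, the highest of the 8 genes, and 3.49% of all genes had a higher one. Because its values are low the ratio moved with the pseudocount, to 0.33 with 5 FPKM. FOLH1 was 19.5 times PSCA in DMSO and 15.5 times in Indocin.

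Among the Ly6/uPAR relatives of PSCA, 6 of 20 genes, PSCA included, reached a mean of 1 FPKM. LY6E, itself an antibody target, was the highest of them at 108.6 FPKM with vehicle and 94.2 FPKM with Indocin (-0.20). The complement inhibitor CD59 stood at 10.9 and 11.2 FPKM (0.04), LYNX1 at 8.50 and 10.1 FPKM (0.23), LYPD3 at 2.64 and 2.33 FPKM (-0.13) and LYPD6B at 1.20 and 2.17 FPKM (0.52). None passed 1.5-fold on the FPKM + 1 scale (97.1% of all genes did not). In FPKM alone LYPD6B lay past it, its values being close to the pseudocount of 1 FPKM. With PSCA, 4 of the 6 lay above 0 and the median was 0.13, beside -0.03 for all genes. Without PSCA, 3 of 5 lay above 0 and the median was 0.04.

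TRPM8 encodes the cold- and menthol-gated cation channel of sensory neurons, which is also made by prostate epithelium. It was the lowest surface target, at 2.46 FPKM with vehicle and 2.56 FPKM with Indocin, with a log2 ratio of 0.04. In size that ratio was the smallest of the 8, and 83.4% of all genes had a larger one. By its mean level TRPM8 lay above 12.4% of all genes. It was not the highest channel of its family. Of 27 TRP channel genes 10 reached a mean of 1 FPKM, and 9 were listed at 0 in both libraries. The lysosomal channel MCOLN1 was highest, at 17.0 and 17.7 FPKM (0.06). TRPM2, a channel opened by ADP-ribose, stood at 10.7 and 8.13 FPKM (-0.35), and TRPM4, a calcium-activated sodium channel, at 8.87 and 9.58 FPKM (0.10). TRPV6, the epithelial calcium channel that is often raised in prostate cancer, stood at 3.42 and 4.62 FPKM, with the highest ratio of the list, 0.35. The other 5, TRPM7 (0.13), PKD2 (0.22), MCOLN2 (-0.06), TRPV3 (-0.24) and TRPV1 (0.06), had DMSO values between 1.60 and 5.49 FPKM. None of the 10 passed 1.5-fold (97.1% of all genes did not), and their median was 0.06.

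CD276, also called B7-H3, is an immune checkpoint ligand of the B7 family and a target of antibody-drug conjugates. It stood at 46.5 FPKM with vehicle and 38.6 FPKM with Indocin, so the DMSO value was 1.20-fold the Indocin value (log2 ratio -0.26). Its relatives were far lower in both libraries. ICOSLG, the ligand of ICOS, stood at 5.62 and 3.63 FPKM (-0.51), and NCR3LG1, a ligand of the natural killer cell receptor NKp30, at 3.10 and 3.09 FPKM (0.00). The other 7 B7 genes stayed under a mean of 1 FPKM. Among these, CD274, which encodes PD-L1, was listed at 0.355 and 0.448 FPKM, while PDCD1LG2 and CD86 were listed at 0 in both libraries.

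Within the SLC45 family SLC45A3 had the largest ratio in size. SLC45A1 was listed at 2.55 and 3.35 FPKM (0.30) and SLC45A4 at 5.79 and 5.55 FPKM (-0.05), and SLC45A2, the melanosomal transporter, stayed under 1 FPKM (0.247 and 0.113). SLC45A4 changed sign when the libraries were scaled to the same upper quartile.

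Relatives of FOLH1 and genes of folate handling gave mostly small differences. NAALADL2 stood at 2.03 and 2.23 FPKM (0.09), and NAALAD2, a related carboxypeptidase, at 0.512 and 0.499 FPKM, below the minimum mean. The transferrin receptors, which share the fold of FOLH1, stood at 128.9 and 101.7 FPKM for TFRC (-0.34) and 7.33 and 6.96 FPKM for TFR2 (-0.07). The reduced folate carrier SLC19A1 had the largest ratio in size, at 27.5 and 20.1 FPKM (-0.435). SLC46A1 (-0.06), the proton-coupled folate transporter, and the enzymes that add and remove folate glutamates, FPGS (-0.16) and GGH (-0.07), differed less. Of the 8 genes that averaged at least 1 FPKM, FOLH1 and NAALADL2 lay above 0 and 6 below, where 55.2% of all genes lay below. With the same upper quartile 4 lay on each side. None passed 1.5-fold, where 97.1% of all genes did not.

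**Figure D3:**
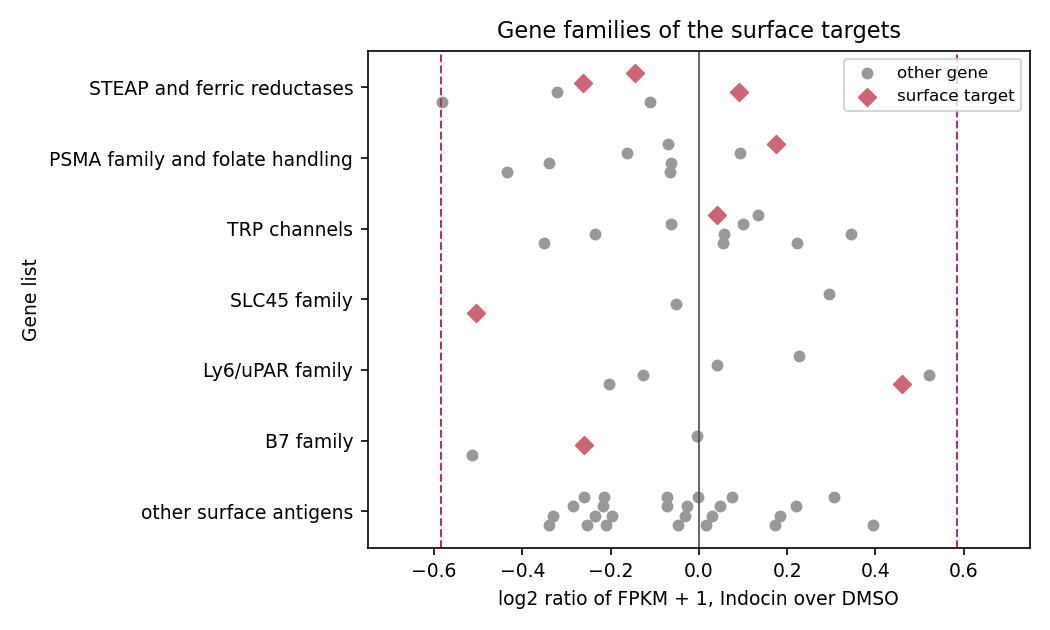
Log2 ratios of FPKM + 1, Indocin over DMSO, for genes that averaged at least 1 FPKM in each family of the surface targets and in a list of other surface antigens. Diamonds are the surface targets, circles the other genes, and dashed lines mark 1.5-fold. No gene lies past the dashed lines, STEAP1B (-0.58) being nearest to one.

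A further 46 surface antigens that have been proposed as targets in prostate or other cancers were set beside the 8, 25 of them that averaged at least 1 FPKM. None differed by 1.5-fold either, where 97.1% of all genes did not. Of the 25, 16 lay below 0 and 9 above (12 and 13 with the same upper quartile), with a median of -0.05. The highest were TFRC, the androgen-regulated protease TMPRSS2 (105.3 and 109.0 FPKM, 0.05) and the epithelial adhesion molecule EPCAM (81.7 and 80.2 FPKM, -0.03). The largest ratios in size belonged to the serine protease hepsin, HPN (17.6 and 23.5 FPKM, 0.39), TFRC (-0.34), CDCP1 (40.0 and 31.6 FPKM, -0.33) and ALCAM (1.92 and 2.61 FPKM, 0.31). DLL3, a target in neuroendocrine cancers, was present at 12.2 and 10.2 FPKM, while the neuroendocrine factors INSM1 and NEUROD1 were listed at 0 in both libraries. DLL3 was named after its values were seen. Set beside these antigens, SLC45A3, FOLH1 and STEAP1 each had a higher mean level than any of the 25.

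For androgen-induced genes outside the surface targets, 1 of 18 that averaged at least 1 FPKM, EAF2 (22.3 and 14.2 FPKM, -0.61), lay past 1.5-fold on the lower side and no gene did on the higher side, against 0.744% and 2.19% of all genes. The median of the 18 was -0.09, beside -0.03 for all genes, with 11 below 0 and 7 above, where 55.2% of all genes lay below. KLK2 stood at 128.4 and 93.7 FPKM (-0.45), PMEPA1 at 24.6 and 18.3 FPKM (-0.41), NDRG1 at 351.5 and 265.5 FPKM (-0.40) and the cochaperone FKBP5 at 225.3 and 172.1 FPKM (-0.39), while ACSL3 lay on the other side (204.6 and 286.7 FPKM, 0.485). SLC45A3, at -0.51, lay between EAF2 and KLK2, and TRPM8, at 0.04, beside TMPRSS2 (0.05). In the luminal list GATA2, a transcription factor of luminal prostate cells, was the 1 gene of 7 past 1.5-fold (87.1 and 57.2 FPKM, -0.60), on the side where 0.744% of all genes lay. The median of the 7 was -0.30, or -0.23 with the same upper quartile, and 6 lay below 0 in both cases. The 2 lists overlap, since KLK2 and KLK3 belong to both. HOXB13, a prostate lineage factor, stood at 146.1 and 106.4 FPKM (-0.45), and FOXA1 had a ratio of 0.01. These differences come from the same 2 libraries as that of SLC45A3, and their part in it was not tested.

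Each of the 8 surface targets kept its direction under the settings tried, but many of these settings could not have changed it. A pseudocount cannot change the sign of a ratio, and centring and either scaling moved the ratios upward. Only the ratios below 0 could therefore have changed sign. Scaling both libraries to the same upper quartile moved the median of all genes by 0.06, and scaling them to the same sum by 0.04. Under these, under pseudocounts of 0.1 and 5 FPKM and with ratios centred on their median, SLC45A3 ranged from -0.51 to -0.43, PSCA from 0.33 to 0.53 and FOLH1 from 0.17 to 0.25. STEAP1, the negative ratio nearest to 0, ranged from -0.14 to -0.07, and TRPM8, the positive one nearest to 0, from 0.02 to 0.09.

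**Figure D4:**
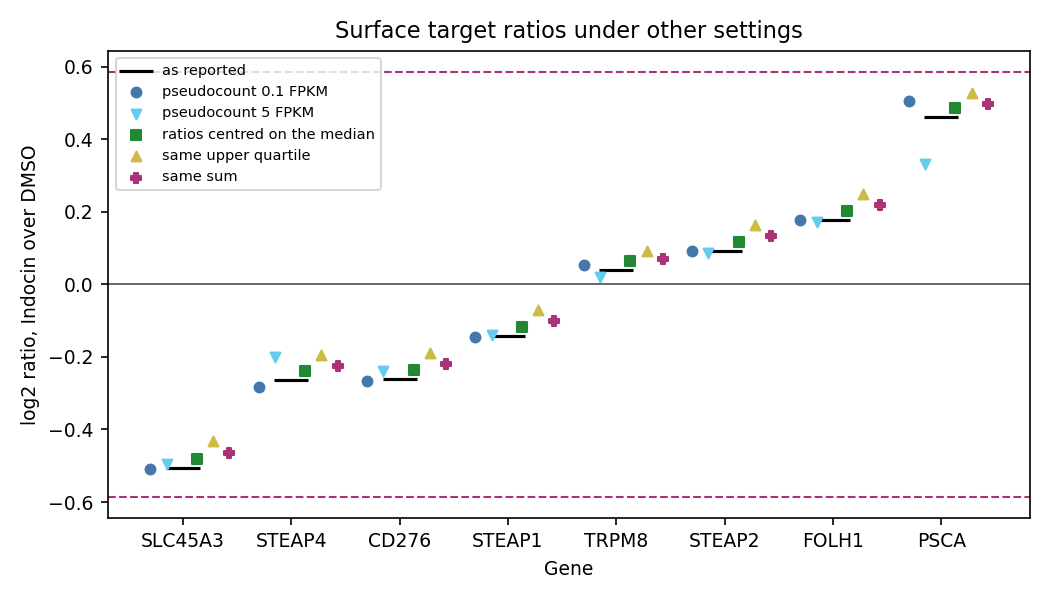
Log2 ratios of the 8 surface targets, Indocin over DMSO, as reported (black bars) and under 2 other pseudocounts, centring on the median of all genes, and scaling to a common upper quartile or a common sum (symbols). Dashed lines mark 1.5-fold. Each gene stays on its side of 0 and inside the dashed lines under every setting shown, and PSCA moves most, from 0.33 to 0.53.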

How the data were processed

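One RNA-seq library with DMSO and 1 with Indocin were prepared from C4-2B MDVR cells with a stranded mRNA kit, per the labels' protocols. The deposited values were FPKM per gene symbol, each with the status OK, per the file headers. Named per the submitters' processing notes are TopHat, StringTie, Cufflinks, Cuffnorm and bcl2fastq, with GRCh37 and hg19 as builds. The part of each tool, its version, the gene annotation and the use of strand were not given in the sources used here.

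No count test fits FPKM, and with 1 library per group no test of any kind was made. Read totals were not recovered. Compared were 1332 genes above 0 in both libraries with a mean under 0.05 FPKM, short RNA genes left out. Of these, 24.2% had a library ratio within 0.5% of 1.017 times a ratio of whole numbers up to 4. For other factors the median share was 1.20%. Only factors near 1 were tried, so whether a fragment added a similar FPKM in each library was not settled.

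The log2 ratio used a pseudocount of 1 FPKM. Genes entered with a mean of at least 1 FPKM, and 2043 symbols of short RNA genes, recognised by their first letters, were removed, FPKM being unstable at such lengths. Named were all 8 members, every gene of the family lists with a mean of at least 1 FPKM, and of other lists the 3 highest and up to 4 largest ratios in size. Genes named outside this rule were chosen after their values were seen. The members and the 15 lists were chosen with earlier results of these data known. Of the lists, that of mitochondrially encoded mRNAs had no symbol in the files. Some listed genes are not reported here and were left out of the counts of their lists. Copies were aligned with Biopython 1.88 on GENCODE transcripts of GRCh38, a build other than the deposited one. Calculations used Python 3.11.15 and pandas 2.3.3 and were tested on simulated data. The alternatives tried were other pseudocounts (0.1 and 5 FPKM), the filter removed or raised to 5 FPKM, centring, the same upper quartile, the same sum (without short RNA genes and BCYRN1) and a 2-fold threshold.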

Additional observations from a re-analysis of the deposited data

How the results depend on the processing

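No surface target passed the threshold in either direction under any of 8 alternatives. These were pseudocounts of 0.1 or 5 FPKM, the filter removed or raised to 5 FPKM, and a 2-fold threshold. The others were centred ratios, the same upper quartile and the same sum. The filter changes and the 2-fold threshold could not have added a gene, since they leave each ratio as it is. Each of the 8 kept the sign of its log2 ratio wherever it was computed (TRPM8 has no value under the higher filter). Ratios above 0 could not have changed sign, because a pseudocount cannot do so and each rescaling moved ratios upward. The median of the 8, -0.05 as reported, ranged from -0.14, where TRPM8 was left out, to 0.01 with the same upper quartile, where it changed sign. PSCA with a pseudocount of 5 FPKM (0.33) was the 1 log2 ratio or median that moved by more than 0.1 from its reported value. Ratios near 0 moved by smaller amounts that are large beside their own size, among them TRPM8, from 0.04 to 0.09, and STEAP1, from -0.14 to -0.07, both with the same upper quartile. No paired analysis was possible because each group had 1 library. With unknown depth, no interval for counting error could be given, and the low values of TRPM8 and PSCA are the least precise.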

Other observations

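PSCA reaches the membrane by a GPI anchor, which a set of genes builds and attaches. Of 28 such genes 26 averaged at least 1 FPKM, as did 11965 of the 23225 symbols that are not short RNA genes. None of the 26 differed by 1.5-fold, where 97.1% of all genes did not. The highest were the transamidase subunit GPAA1 (110.5 FPKM with vehicle and 105.2 FPKM with Indocin, a log2 ratio of -0.07), DPM3, a subunit of the enzyme that supplies mannose (109.9 and 99.7 FPKM, -0.14), and PIGY (104.9 and 97.1 FPKM, -0.11). The largest ratios in size were those of PIGW (45.6 and 33.9 FPKM, -0.42), PGAP2 (50.6 and 39.5 FPKM, -0.35), the mannosyltransferase PIGV (11.0 and 14.0 FPKM, 0.32) and PIGL (10.9 and 8.78 FPKM, -0.28). The median was -0.01, beside -0.03 for all genes, and 12 genes lay above 0 against 14 below. With the same upper quartile 18 lay above 0 and 8 below. That setting also raised the median of all genes, to 0.04, beside 0.06 for these 26 genes. The change in division therefore went with a shift of all genes.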
